A study of Schizosaccharomyces pombe with 32 samples.

Results

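The glycolytic enzyme genes of the fission yeast Schizosaccharomyces pombe were followed through oxidative stress. They were chosen as the probe sets that the platform annotation gives to 10 listed genes, hxk1, hxk2, pfk1, fba1, tpi1, tdh1, pgk1, eno101, eno102 and pyk1, and 10 of the 4972 probe sets on the array were found. For 9 genes the probe set names 1 gene. The probe set of tdh1 also names gpd3, the other gene of the same enzyme, so its signal cannot be assigned to either and is called tdh1/gpd3 here. Glycolysis splits glucose into pyruvate and yields ATP and NADH. Hexokinase traps glucose in the cell, phosphofructokinase commits it to the pathway, aldolase and triosephosphate isomerase make the 3-carbon sugars, and the lower enzymes oxidise these to pyruvate. In yeasts growing on glucose the pathway runs at a high rate and ends mostly in ethanol, and its messenger RNAs are among the most abundant of the cell. Several steps have paired genes, and a pair can be regulated apart.

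The study compared 2 cultures given 0.5 mM hydrogen peroxide with 2 untreated cultures, all of strain JB50, which is homothallic (h90, able to mate with itself), grown at 32 °C by shaking in flasks of the rich medium YES. Stressed cultures were sampled before peroxide (0 min) and then at 10 times, early at 5, 10, 15 and 30 min, in the middle at 50, 60, 90 and 120 min, and late at 180 and 240 min, and untreated cultures at 0 min and on each full hour up to 240 min. Each sample of total RNA was labelled with biotin and put on 1 of 32 single-colour arrays, which gives 16 groups of 2 arrays. Each culture was followed through time in 1 flask, and the labels tell of stressed cultures begun at unlike cell densities without saying which of them had which. Growth and time in the flask are shared by all groups, so that time after peroxide is also time of growth.

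Signals ran from 0.0029 to 64.6 on the authors' linear scale, with array medians from 1.52 to 2.0. The 30 min array of stressed culture 2 stood apart, with a highest correlation to any other array of 0.909 against 0.973 or more for the other 31. By place in the table, which depends on how well each probe set binds as well as on the amount of RNA, 9 of the 10 probe sets stood high. The median signal of eno101 over the 32 arrays lay at percentile 99.9 of all probe sets and that of fba1, tpi1, pyk1, tdh1/gpd3, pgk1, hxk2 and pfk1 between 94.5 and 99.7. That of hxk1 lay at 78.0 and that of eno102 at 19.2. How far the brightest probe sets are compressed by the scanner was not tested. With 2 arrays in each group, precision is limited throughout. The p-values rest on 1 spread per probe set, pooled from the gaps between 2 cultures over all groups in a fit. Arrays of 1 culture at different times are not independent. In bulk RNA, fewer cells with a transcript and less of it per cell cannot be told apart.

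eno102 encodes an enolase, the enzyme that makes phosphoenolpyruvate, and is one of the paired genes of that step. It was the gene whose signal moved most among the 10. In stressed culture 1 its signal was 0.41 before peroxide and 0.558 after 5 min. It stood at 1.74 and 1.26 at 10 and 15 min, and at 3.37 and 14.1 at 30 and 50 min. It was highest at 60 min, at 18.9, which is 46.2 times its own start, and then came down through 9.52 and 6.49 at 90 and 120 min to 1.3 and 0.609 at 180 and 240 min. This culture thus went up and came back almost to where it began.

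Stressed culture 2 went up later and stayed up. Its eno102 signal was 0.427 before peroxide, between 0.618 and 0.732 in the arrays of 5, 10 and 15 min, and 0.314 in the array of 30 min. It then stood at 6.05 and 6.42 at 50 and 60 min and at 14.1 and 19.0 at 90 and 120 min, the last being 44.5 times its own start. At 180 and 240 min it was still at 17.5 and 16.9. The 2 cultures therefore reached nearly the same highest signal at different times and parted at the end.

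Without peroxide the eno102 signal stayed between 0.2 and 0.603 in all 10 arrays, with a median of 0.267. Both stressed arrays lay above the highest untreated array at 10, 15, 50, 60, 90, 120, 180 and 240 min, and 1 of 2 did at 5 and at 30 min. The lower array at 10, 15 and 240 min, with 0.618, 0.659 and 0.609, was close to that highest untreated signal of 0.603. At 50 to 120 min the lowest stressed array was at 6.05, far from any untreated one. Within its own array eno102 went from percentile 12.6 at 0 min to 96.4 at 60 min in culture 1, and from 14.6 at 0 min to 96.7 at 120 min in culture 2. Because the floor of the deposited signal is unknown, a fold from so low a start has no known bound.

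**Figure D1:**
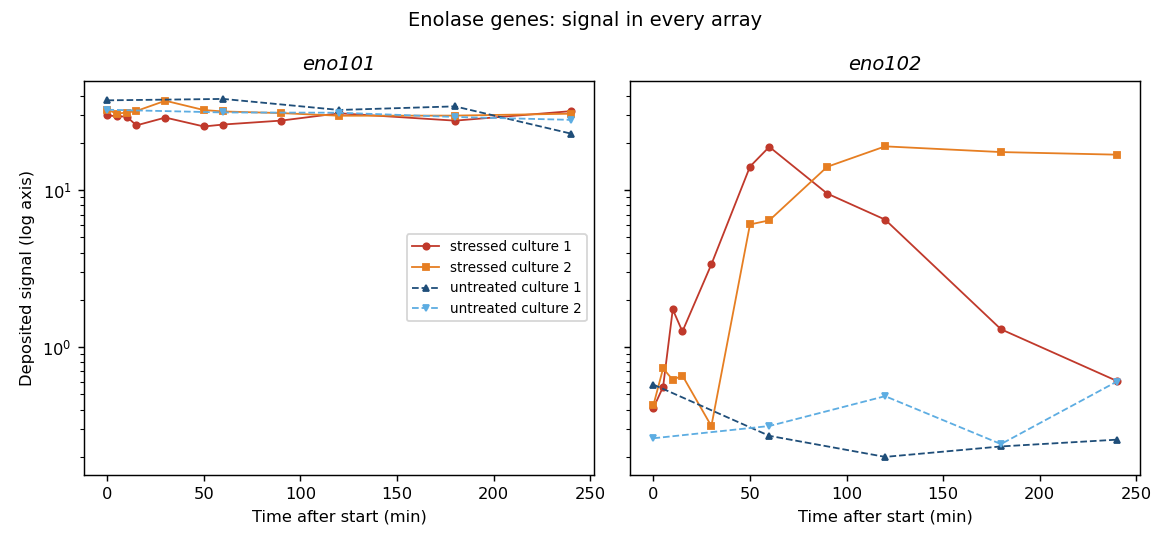
Deposited signal (vertical, log axis) of eno101 and eno102 against time in min (horizontal); each point is 1 array and each line 1 culture, stressed or untreated. eno101 keeps between 23.0 and 38.2 in all arrays, while eno102 goes from about 0.4 to 18.9 at 60 min in stressed culture 1 and to 19.0 at 120 min in stressed culture 2.

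Over both cultures the log2 change of eno102 against 0 min was 4.47, 4.72, 4.79 and 4.73 at 50, 60, 90 and 120 min, each with an SE of 1.29 (n = 2 arrays per group). Its mean signal went from 0.419 ± 0.0127 at 0 min to 12.7 ± 8.83 at 60 min (SD, n = 2). In the limma fit of all 32 arrays, adjusted over all probe sets, none of these changes passed the threshold of 0.05: the adjusted p was 0.132, 0.106, 0.115 and 0.217. The adjusted p of the F-test over all 10 stressed times was 0.218. At 180 and 240 min, where the cultures lay farthest apart, the change was 3.51 and 2.94 (adjusted p = 0.826 and 0.942).

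This fit takes its spread from all arrays, those of the late and unlike ones included. With the stressed arrays of 0 to 60 min and all untreated arrays, a choice made knowing that the cultures part later, eno102 rose by 4.47 ± 0.88 at 50 min (SE, limma adjusted p = 0.005) and by 4.72 ± 0.88 at 60 min (adjusted p = 0.00382). It was the only 1 of the 10 probe sets called at either time in that fit, in which 14.9% and 14.2% of all probe sets were called. Its F-test over the 5 to 60 min times gave an adjusted p of 0.00875, with 11.4% of all probe sets called. Fitted on just the arrays that each comparison uses, eno102 was called at 50, 60 and 90 min. It was called at these times too with all 4 arrays at 0 min as the reference. Without stressed culture 1 the change of eno102 lay between 3.82 and 5.48 from 50 to 240 min. Without stressed culture 2 it was 5.53 at 60 min and 0.57 at 240 min. These last fits leave 1 array per stressed group. Their spread comes from untreated arrays alone, so they cannot weigh the gap between the stressed cultures. Over 16 alternatives the adjusted p at 60 min ran from 0.00382 to 0.604, with log2 changes from 3.91 to 5.53. Of these 5 were under the threshold, both last fits among them. The share of all probe sets called is given here only for the fit up to 60 min.

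eno101, the other enolase gene of the pair, showed no such course. In stressed culture 1 its lowest, median and highest signals over 11 arrays were 25.5, 29.1 and 31.9, and in stressed culture 2 they were 29.8, 31.3 and 37.2. The highest of these was the 30 min array of culture 2. Its change over both cultures was -0.11 ± 0.20 at 60 min (SE, limma adjusted p = 0.788), with a 95% interval from -0.53 to 0.30.

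The 2 enolase genes were compared by the log2 ratio of eno102 over eno101 within each array, as a change from the culture's own 0 min, since levels of different probe sets cannot be set against each other. In stressed culture 1 the ratio was 52.8, 15.4, 3.43 and 1.4 times its start at 60, 120, 180 and 240 min. In stressed culture 2 it was 15.4, 48.5, 44.5 and 41.7 times its start at the same times. In the untreated cultures it stayed between 0.399 and 2.66 times its start. Fitted as a further row of the table, the log2 ratio changed by 4.83 ± 1.33 at 60 min (SE, limma adjusted p = 0.105) with all arrays and by 4.83 ± 0.97 (adjusted p = 0.00516) with the stressed arrays up to 60 min. Without stressed culture 1 or 2, which leaves 1 array per stressed group, the log2 ratio changed by 3.94 and 5.72 at 60 min. Nearly all of its change lay in eno102. In the RefSeq gene table the coordinates of a non-coding RNA gene, SPNCRNA.1302, overlap those of eno102. Strands were not compared, and whether its RNA reaches this probe set is unknown. Sharing of target between the probe sets of the pair was not tested.

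**Figure D2:**
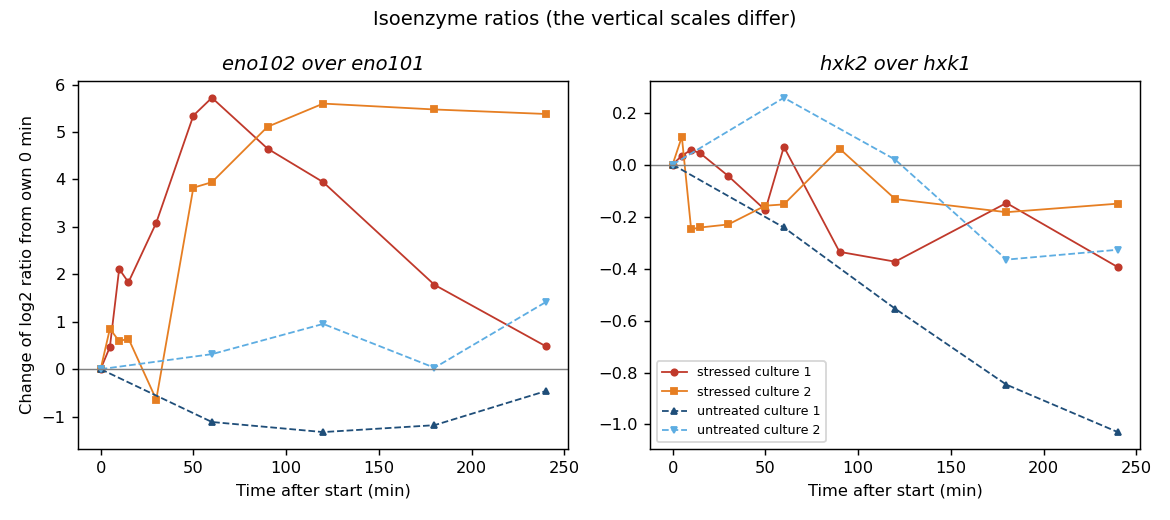
Change of the log2 ratio of paired genes from the culture's own 0 min (vertical) against time in min (horizontal), for eno102 over eno101 and for hxk2 over hxk1, with 1 line per culture; the vertical scales differ. The enolase ratio reaches 5.72 in stressed culture 1 and 5.60 in stressed culture 2, while the hexokinase ratio goes lowest, to -1.03, in untreated culture 1.

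The genes most like eno102 over the 32 arrays, by Pearson's r of log2 signal after each array was centred on its median, were tms1, a hexitol dehydrogenase gene (r = 0.98), gna1, a glucosamine phosphate acetyltransferase gene (0.98), mug182 (0.96) and cao2, a gene of the copper amine oxidase family (0.95). These were the highest of 2902 probe sets with 1 gene, the arrays of a culture are not independent, and no test was made. Because they were picked by likeness in these same arrays, a course shared with eno102 follows from the choice. At 60 min the signal of tms1 was 11.0 in stressed culture 1 and 7.69 in stressed culture 2. At 240 min it was 0.83 and 13.9, so that it too came back in culture 1 and stayed up in culture 2. The log2 changes of gna1 at 240 min were 0.08 and 2.05 in cultures 1 and 2. For mug182 these were 0.34 and 2.72. Among the 10 glycolytic probe sets themselves, eno102 had correlations from -0.30 to 0.56 with the other 9, while the 36 pairs among those 9 ran from 0.30 to 0.94 with a median of 0.85. The highest pairs were pfk1 with hxk2 and pfk1 with pyk1, at 0.94 each.

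**Figure D3:**
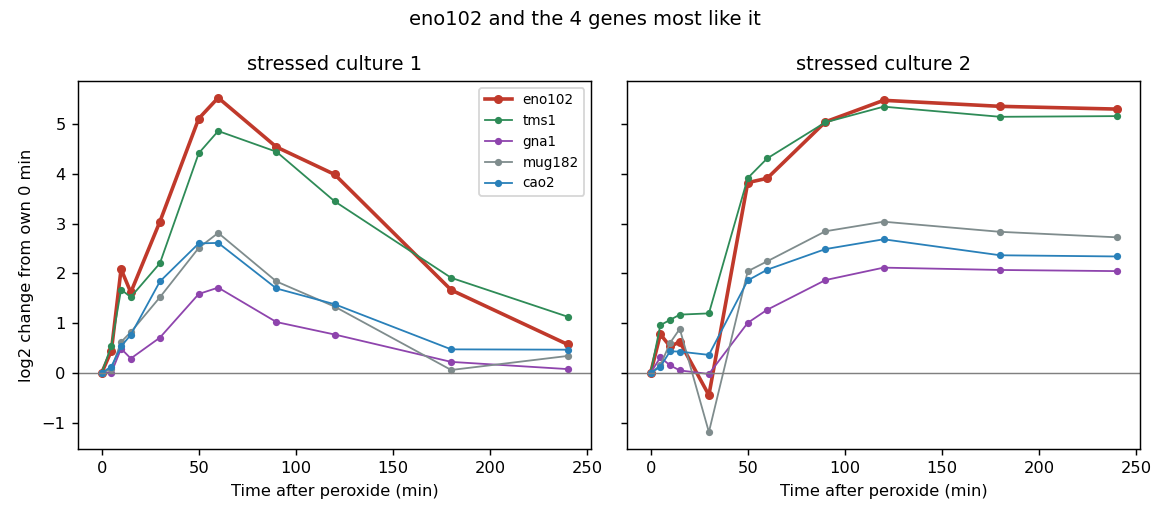
Log2 change from the culture's own 0 min (vertical) against time after peroxide in min (horizontal) in stressed culture 1 and stressed culture 2, for eno102 and the 4 genes most like it. These 4 were picked by likeness in these same arrays, so a shared course follows from the choice. All 5 lines come down again in culture 1 and stay up in culture 2, and eno102 ends at 0.57 in the one and 5.30 in the other.

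Of the 8 protein-coding genes nearest to eno102 in the RefSeq table, 4 on each side, 1 had a probe set with 1 gene. This was grt1, the farthest of the 4 on its side. Its log2 changes at 60 min were -0.37 and -0.61 in stressed cultures 1 and 2, unlike those of eno102. The genes closer to eno102 had no such probe set, so whether they followed eno102 was not tested.

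The other 9 probe sets moved little after peroxide. Of their 180 changes against the own 0 min array (9 probe sets, 10 times and 2 cultures), 0 were beyond a log2 change of 1 and 4 beyond 0.5, within a range from -0.62 to 0.75. In the limma fit of all arrays, 0 of the 10 probe sets passed at any stressed time, and 0 passed the F-test. The share of all probe sets called was 0% at 5, 10 and 15 min and 1.07% at 30 min (0.865% higher, 0.201% lower). It was 0.302% at 50 min, 0.543% at 60 min (0.442% higher, 0.101% lower), and 0.322% and 0.161% at 90 and 120 min. At 180 and 240 min it was 0.0402% and 0.0201%, and by the F-test 0.483%. At an unadjusted p under 0.05 the count was 1 of 10 at each time from 50 to 240 min and by the F-test, and 0 at 5 to 30 min. Of all 4972 probe sets, 21, 66, 149 and 718 were under that unadjusted threshold at 5, 10, 15 and 30 min. At 50, 60, 90, 120, 180 and 240 min 950, 941, 642, 453, 254 and 191 were, and by the F-test 457.

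By step, the hexokinase genes varied most among these 9. hxk1 had a signal of 4.13 at 0 min, 2.69 at 60 min and 5.28 at 240 min in stressed culture 1, and of 4.72, 4.88 and 4.28 in stressed culture 2. The highest hxk1 signal, 7.95, was in the 30 min array of culture 2, which stands apart from all others; the 30 min array of culture 1 gave 5.03. hxk2 had a signal of 16.7 at 0 min, 11.4 at 60 min and 16.3 at 240 min in culture 1, and of 17.8, 16.6 and 14.5 in culture 2, with its highest value of 25.6 again at 30 min in culture 2, against 19.8 at 30 min in culture 1. The lowest values of both genes over all stressed arrays were at 60 min in culture 1. pfk1, the gene of phosphofructokinase, stood at 13.5 at 0 min, 9.71 at 60 min and 15.2 at 240 min in culture 1 and at 14.7, 16.3 and 13.5 in culture 2. The cultures thus lay on opposite sides of their start at 60 min for hxk1 and pfk1.

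The middle of the pathway was the steadiest. fba1, the aldolase gene, stayed between 27.7 and 31.9 in all 22 stressed arrays, so that its highest signal was 1.15 times its lowest. tpi1, the triosephosphate isomerase gene, stayed between 24.6 and 30.3, and its lowest array was again that of 30 min in culture 2. Neither gene had a log2 change at 60 min beyond 0.04 over both cultures (SE 0.17 each). Below that step, tdh1/gpd3, the glyceraldehyde phosphate dehydrogenase probe set, ran from 18.3 to 27.0. pgk1, the phosphoglycerate kinase gene, ran from 20.6 to 26.7, and pyk1, the pyruvate kinase gene, from 19.4 to 29.5. At 60 min 8 of the 9 stood below their start in culture 1, with a median of -0.27, and 4 of 9 in culture 2, with a median of 0.05, against -0.07 and -0.11 for all probe sets.

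**Figure D4:**
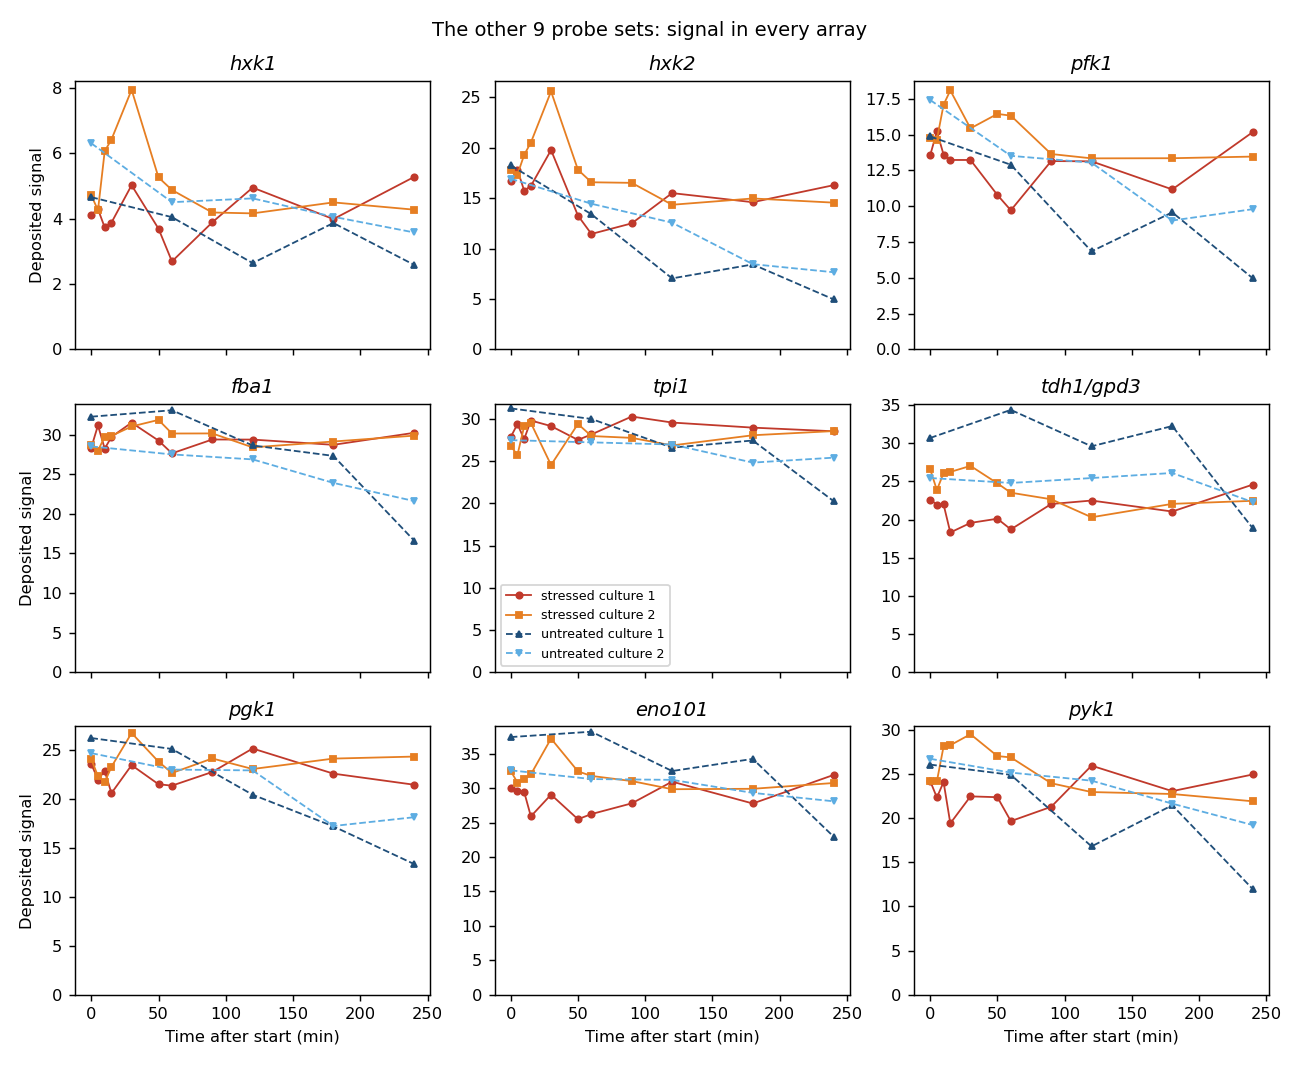
Deposited signal (vertical, from 0, with a scale of its own in each panel) against time in min (horizontal) for the 9 probe sets other than eno102; each point is 1 array and each line 1 culture. The stressed lines stay within a log2 change of 0.5 from their start, apart from hxk1 and hxk2, which lie beyond it at 60 min in stressed culture 1 (-0.62 and -0.55) and at 30 min in stressed culture 2 (0.75 and 0.52), and the untreated lines are lower at 240 min than at 0 min in every panel.

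hxk1 and hxk2 were compared in the same way as the enolase pair. The log2 ratio of hxk2 over hxk1 changed by -0.04 at 60 min over both stressed cultures, with a 95% interval from -0.49 to 0.41, and by -0.27 at 240 min, with an interval from -0.72 to 0.18. It passed the limma test at 0 of the 10 stressed times with all arrays and under every alternative tried. Of the 16 groups of arrays, those of the untreated cultures at 180 and 240 min had the lowest ratios. At 240 min the ratio was 0.49 times its start in untreated culture 1 and 0.797 times in untreated culture 2, a log2 change of -0.68 ± 0.21 (SE, limma adjusted p = 0.0509, 95% interval from -1.13 to -0.23). With the culture as a block it passed at 180 and 240 min (limma adjusted p = 0.048 and 0.0196). That fit called 604 and 950 of all 4972 probe sets at these times, against 275 and 490 without the block. Over 15 alternatives the adjusted p at 240 min ran from 0.0196 to 0.981. The change of this ratio between the series at 240 min differed by 0.41, with an interval from -0.23 to 1.04 (adjusted p = 0.692).

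The genes most like hxk2 over the 32 arrays were ala1, an alanyl tRNA synthetase gene (r = 0.97), the hexose transporter gene ght8 (0.95), usp107 (0.94) and fma1, a methionine aminopeptidase gene (0.94). Those most like hxk1 were krs1 (0.93), a lysyl tRNA synthetase gene, tif303 (0.92), a translation initiation factor gene, grs1 (0.92), a glycyl tRNA synthetase gene, and the fatty acid synthase gene fas1 (0.91). For eno101 they were the alcohol dehydrogenase gene adh1 (0.91), the ribosomal protein genes rps1002 (0.88) and rps001 (0.85), and pyk1 (0.86), itself one of the 10.

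Without peroxide, some of the glycolytic transcripts were lower late in the time course. At 240 min 5 of the 10 probe sets had fallen against 0 min in limma's test of all arrays, hxk2, pfk1, fba1, pgk1 and pyk1, where 3.96% of all probe sets had fallen 5.89% had risen and 9.86% were called in all. No glycolytic probe set had risen. At 180 min hxk2 alone had fallen, with 1.87% of all probe sets lower, 3.66% higher and 5.53% called in all. At 60 and 120 min 0 of 10 passed, with 0.0402% and 1.13% of all probe sets called. At an unadjusted p under 0.05 there were 0 and 2 of the 10, and 120 and 467 of all 4972 probe sets.

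hxk2 changed most. Its signal in untreated culture 1 was 18.2, 13.4, 7.04, 8.42 and 4.96 at 0, 60, 120, 180 and 240 min. In untreated culture 2 it was 16.9, 14.4, 12.6, 8.45 and 7.65. The arrays of 0 and 240 min do not overlap, and the change was -1.51 ± 0.27 (SE, limma adjusted p = 0.00182). pfk1 was at 14.9 and 17.4 at 0 min and at 4.95 and 9.79 at 240 min in cultures 1 and 2, a change of -1.21 ± 0.33 (adjusted p = 0.0239). pyk1 was at 26.1 and 26.7 at 0 min and at 11.9 and 19.2 at 240 min, a change of -0.80 ± 0.25 (adjusted p = 0.0485).

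pgk1 was at 26.2 and 24.7 at 0 min and at 13.3 and 18.1 at 240 min, a change of -0.71 ± 0.18 (adjusted p = 0.0148). fba1 was at 32.3 and 28.5 at 0 min and at 16.6 and 21.6 at 240 min, a change of -0.68 ± 0.17 (adjusted p = 0.0165). hxk1 (-0.83), eno101 (-0.46), tdh1/gpd3 (-0.45) and tpi1 (-0.37) stood lower without passing, with limma adjusted p of 0.149, 0.171, 0.271 and 0.202. eno102 stood at 0.02, with -1.17 in culture 1 and 1.2 in culture 2. In 9 of the 10 probe sets both arrays of 240 min lay below both of 0 min, as did 27.8% of all probe sets. The median change of the 10 was -0.69, against -0.03 for all probe sets.

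Untreated culture 1 changed more than culture 2. The median change at 240 min of the 9 probe sets without eno102 was -0.96 in culture 1 and -0.44 in culture 2, and 9 of 9 were lower in each. Without untreated culture 1, hxk2, pfk1, fba1, pgk1 and pyk1 changed by -1.15, -0.83, -0.40, -0.44 and -0.48 at 240 min. Without untreated culture 2 they changed by -1.88, -1.59, -0.96, -0.97 and -1.13. Either fit leaves 1 array per untreated group. Without stressed culture 1, and likewise without stressed culture 2, whose arrays help set the spread, hxk2 alone was called (adjusted p = 0.0179). With quantile normalization hxk2, pfk1 and fba1 were called, and pyk1 and pgk1 lost their call. With median centring pyk1 lost its call, as it did in the fit of stressed arrays up to 60 min and without either stressed array at 0 min. Fitted on just the arrays of 0 and 240 min, hxk2 alone kept its call of the 5. Over 15 alternatives the call at 240 min was made in 14 for hxk2, 11 each for pfk1 and fba1, 9 for pgk1 and 5 for pyk1. For most of these fits the share of all probe sets called is not given. Whether a lost call is particular to these genes was not tested. The call of hxk2 at 180 min was made in 9 of 15 and was lost with median centring, with quantile normalization and without any 1 of the 4 cultures. With the culture as a block hxk1 was called as well (adjusted p = 0.0369), and hxk2 from 120 min on (adjusted p = 0.0336 at 120 min). In that fit 8.41% of all probe sets were lower at 240 min and 0.885% at 120 min.

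**Figure D5:**
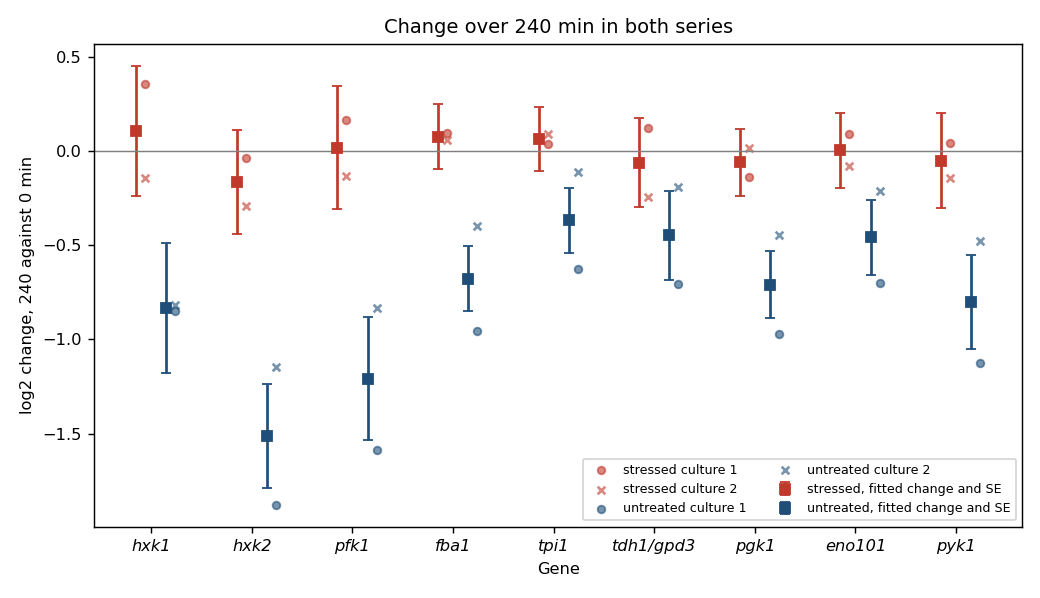
Log2 change from 0 to 240 min (vertical) of 9 probe sets (horizontal) in the stressed and the untreated series. Squares with bars are the fitted change and its SE from limma (n = 2 arrays per group), circles are culture 1 and crosses culture 2; untreated squares lie from -1.51 to -0.37 and stressed squares from -0.17 to 0.11.

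The difference between the series, the change in stressed cultures less that in untreated ones, was tested at the 4 shared times. By limma 0 of the 10 passed at any of them, where 0.0402%, 0.261%, 1.45% and 1.49% of all probe sets passed at 60, 120, 180 and 240 min. At an unadjusted p under 0.05 there were 1, 1, 3 and 5 of 10, and 329, 421, 508 and 590 of all 4972 probe sets. At 240 min the difference was above 0 for 10 of 10, with a median of 0.75 against -0.01 for all probe sets. It was 1.35 for hxk2 (adjusted p = 0.0936), 1.23 for pfk1 (0.238) and 0.75 for fba1 (0.145). With the culture as a block hxk2 (1.35 ± 0.32, SE, limma adjusted p = 0.0184) and fba1 (0.75 ± 0.21, adjusted p = 0.0427) passed at 240 min, with 2.23% of all probe sets higher. The difference of eno102 was 5.13 ± 1.82 at 60 min (adjusted p = 0.607). It passed in a fit of just the arrays it uses (adjusted p = 0.0154). With the stressed arrays up to 60 min the adjusted p was 0.0515, and 1.61% of all probe sets were called. Leaving out a stressed culture leaves 1 array per stressed group. The eno102 difference was then 5.94 and 0.55 at 60 and 240 min without culture 2, and 4.32 and 5.28 without culture 1. Before peroxide 0 of the 10 differed between the series, with 0% of all probe sets called. At an unadjusted p under 0.05 there were 0 of 10, and 65 of all 4972 probe sets. The differences ran from -0.30 for hxk1 to 0.11 for eno102.

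Genes around the pathway were read from lists whose members were chosen by role. A list gene is called measured here if a probe set was named with that gene alone. The other list genes may still lie on unnamed or shared probe sets, which were not searched. The median change at 60 min of peroxide was 3.34 in the stress reference list, 0.76 in the glycerol and trehalose list and 0.65 in the list of regulators of carbon use, and from -0.26 to 0.30 in the other 5, against -0.11 for all probe sets. At 240 min without peroxide the list medians ran from -0.56, for other genes of glycolysis and gluconeogenesis, to 0.78, for mating and meiosis, against -0.03. Of 7 other genes of glycolysis and gluconeogenesis 3 were measured. fbp1, the gene of the gluconeogenic fructose bisphosphatase, rose in untreated cultures by 3.99 ± 0.61 at 240 min (limma adjusted p = 0.000463), from signals of 0.252 and 0.311 to 3.30 and 5.98. This stood beside the fall of the glycolytic genes in the same arrays. gpm1, the phosphoglycerate mutase gene, named after its values were seen, fell by 0.66 there (SE 0.17, adjusted p = 0.0172). pgi1, the glucose phosphate isomerase gene, was not called. In peroxide, fbp1 stood at 1.10 at 60 min and rose in the fit of stressed arrays up to 60 min (adjusted p = 0.0279), in which 6.11% of all probe sets were higher and 8.05% lower.

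Of the list of alcohol and aldehyde steps 3 of 11 genes were measured. atd3, an aldehyde dehydrogenase gene, rose in untreated cultures by 1.93 ± 0.28 at 240 min (limma adjusted p = 0.000247). Its change in stressed cultures less that in untreated ones was -1.79 (limma adjusted p = 0.0259). adh4 stood at -0.26 at 60 min of peroxide, without a call. The list headed pyruvate into mitochondria, a heading that does not describe the role of every member, had 8 measured genes. Among these lat1, a subunit gene of pyruvate dehydrogenase, rose by 1.12 ± 0.25 at 30 min of peroxide (limma adjusted p = 0.0401). That change was 0.62 in culture 1 and 1.62 in culture 2, whose array stands apart. The malic enzyme gene mae2, named after its values were seen, fell in untreated cultures by 3.23 at 240 min (SE 0.32, limma adjusted p = 7.02e-06). It was the 1 of the 8 list genes called there, where 9.86% of all probe sets were called.

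In the pentose phosphate pathway, which makes NADPH, 3 of 10 genes were measured and 0 were called at any time with all arrays. zwf1, the glucose phosphate dehydrogenase gene, stood at 1.55 at 60 min of peroxide and rose in the fit up to 60 min (adjusted p = 0.0156). The change of tal1, the transaldolase gene, was 0.19. In the glycerol and trehalose list 0 of 9 measured genes were called at 60 min with all arrays. In the fit up to 60 min, with 6.11% of all probe sets higher at 60 min, 3 of the 9 rose. Among them was the trehalose phosphatase gene tpp1 (1.16 ± 0.27, adjusted p = 0.0116). At 240 min without peroxide gpd2, a glycerol phosphate dehydrogenase gene, fell by 1.19 (SE 0.29, adjusted p = 0.0126) and dak2, named after its values were seen, rose by 1.23 (adjusted p = 0.0472).

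Of 14 regulators of carbon use, all measured, 0 were called at any stressed time with all arrays. In the fit up to 60 min 5 rose at 50 min and 1 at 60 min, and 0 fell. That fit called 14.9% and 14.2% of all probe sets at these times. The list median was 0.72 and 0.65, and the 2 genes named by their F-test p went the other way. The change of gpa2, which encodes a G protein subunit of glucose sensing, was -0.51 at 60 min of peroxide, and that of the glucose receptor gene git3 was -1.09. At 240 min without peroxide gpa2 fell by 1.35 (SE 0.23, limma adjusted p = 0.00114) and 1 other rose. There 3.96% of all probe sets were lower and 5.89% higher. Of 10 reference genes of the stress response 2 rose at 60 min with all arrays, where 0.442% of all probe sets were higher. These were tms1 by 4.58 ± 0.96 (limma adjusted p = 0.0363) and the small heat shock protein gene hsp16 by 2.57 ± 0.51 (adjusted p = 0.0318). In the fit up to 60 min 9 rose at 60 min, with 6.11% of all probe sets higher. At 240 min without peroxide 0 of the 10 reference genes were called, with 9.86% of all probe sets called. The untreated cultures were unlike in hsp16, with signals of 2.26 and 9.55 at 0 min in cultures 1 and 2. Its log2 change at 60 min without peroxide was 2.70 in culture 1 and -0.53 in culture 2. Of 10 genes of mating and meiosis 3 rose at 240 min without peroxide, where 5.89% of all probe sets were higher. At 30 min of peroxide, where 0.201% of all probe sets were lower, 2 of the 10 fell. These were mfm2 by 4.42 and mei2 by 2.26 (limma adjusted p = 0.0401 and 0.0482). In culture 1 alone these changes were -3.69 and -2.00. The state of the untreated cultures thus moved in more than glycolysis, and its part in the fall of the glycolytic genes was not tested.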

How the data were processed

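The authors deposited 1 linear signal for each probe set and array, 32 single-colour arrays of total RNA in all. Their background correction, probe summary and scaling are not given in the sources used here. Probe sets were named from the platform annotation: 2903 had 1 symbol, 16 several, and 2053 were unnamed here. A RefSeq table (assembly ASM294v3) held the gene ID of 2900 of them.

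Signals were log2-transformed with no pseudocount, since 0 were at zero. limma 3.58.1 in R 4.3.3 fitted 1 mean per series and time on all arrays (16 residual and 3.23 prior degrees of freedom), and p-values were adjusted by Benjamini-Hochberg over all 4972 probe sets within each comparison, with a threshold of 0.05. The isoenzyme ratios were added as rows that used the same prior. The members, the gene lists and the alternatives were chosen with earlier results of these data known. Named genes are the 10 members, list genes called at any stressed time or, where a list had none, its 2 genes of lowest F-test p, and the 4 genes most like each enolase and hexokinase gene.

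Each number in the titles stands for 1 culture followed through time, so numbers pair arrays within a series. The gap between cultures 2 and 1, set against the gap at another time, had a median correlation across probe sets of 0.71 in the untreated series (lowest 0.36, 10 of 10 pairs above 0.1) and of 0.26 in the stressed series (lowest -0.37, 34 of 55). Alternatives were the culture as a block, fewer arrays in the fit, median centring, quantile normalization, a pseudocount of 0.1, filters on probe sets, another reference, and leaving out cultures or single arrays.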

Additional observations from a re-analysis of the deposited data

How the results depend on the processing

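Counts are of calls over the 10 glycolytic probe sets and all times of a comparison, with limma. A fit without a whole culture leaves 1 array per group of that series, so its count cannot weigh the gap between the cultures. The share of all probe sets called is not given here for these alternatives. Whether a shift in a count is particular to the glycolytic genes was not tested. Over the 10 stressed times the 0 calls became 3 with the arrays of the compared times only, 2 with the stressed arrays up to 60 min, and 3 with all 4 arrays at 0 min as the reference, and leaving out cultures or arrays gave 0 to 6. All these calls were of eno102, and the counts for the enolase ratio were 3, 2, 3 and 0 to 6 as well. By the F-test the 0 calls became 1 with the stressed arrays up to 60 min, and 0 to 1 on leaving out cultures or arrays. Over the untreated times the 6 calls became 3 with the arrays of the compared times only 3 with quantile normalization, 4 with median centring, 5 with the stressed arrays up to 60 min and 7 with a pseudocount of 0.1, and 0 to 6 on leaving out cultures or arrays. In the difference between the series the 0 calls became 2 under the replicate block and 1 on the arrays compared, and 0 to 3 on leaving out cultures or arrays. With the culture as a block the count over the stressed times stayed at 0 and that over the untreated times went from 6 to 9. No paired analysis was possible for the series at 0 min because culture and series coincide there. The hexokinase ratio in stressed cultures and the comparison at 0 min kept 0 calls throughout.

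Changes near 0 turned sign. At 60 min of peroxide, leaving out cultures or arrays moved hxk1 between -0.62 and 0.047, pfk1 between -0.48 and 0.15, pyk1 between -0.301 and 0.15 and fba1 between -0.037 and 0.071. With all 4 arrays at 0 min as the reference fba1 and tpi1 came to -0.027 and -0.012. At 240 min without peroxide eno102 came to -0.027 with median centring and -0.27 with quantile normalization, and to between -1.17 and 1.2 on leaving out cultures or arrays. The floor of the signal is unknown, which limits what the low eno102 signals can show.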
